A study of Mus musculus with 2 samples.

Results

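MHC class II RNA and surface protein were followed in single synovial cells of bone marrow chimeric mice through 7 genes and 1 antibody. The genes were H2-Aa, H2-Ab1, H2-Eb1, Cd74, H2-DMa, H2-DMb1 and Ciita, taken by name from the 32285 genes in the files, and the antibody was the one named I-A-I-E, taken from 92. All 7 names matched 1 gene each. The day 7 library came from mice that had received 200 µL of clodronate liposomes (Clo-lip) by retro-orbital injection 7 days earlier, and the steady-state library from mice with no treatment. Both libraries came from CD45.1 B6 --> CD45.2 B6 chimeras, in which CD45.1 marrow was given to CD45.2 hosts whose ankle was shielded from irradiation, and the ankle was the joint sampled. Live CD45+ CD11b+ cells of the ankle synovium were sorted that lacked Ly6G, SiglecF, CD64, class II, Ly6C and CD177 on their surface. RNA and antibody-derived tags were counted in the same cells by CITE-seq, a droplet method that reads surface proteins through barcoded antibodies. There was 1 library per group, and the number of animals behind each is not given in the sources used here. No difference between the libraries therefore has a replicate check or a p-value, and every interval given covers counting error only.

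MHC class II molecules hold peptides from the endocytic pathway at the cell surface for CD4+ T cells. The α and β chains pair in the endoplasmic reticulum with the invariant chain, whose remaining fragment is later exchanged for peptide in endosomes with the help of the DM heterodimer. The transactivator CIITA, which binds no DNA itself, is recruited by factors bound to the X and Y boxes of class II promoters and sets how much of these genes a cell makes. Dendritic cells and B cells carry high class II, monocytes gain it as they enter tissues, and resident synovial macrophages, above all those of the lining layer, are known for little of it.

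H2-Aa encodes the α chain of I-A, H2-Ab1 the β chain of I-A and H2-Eb1 the β chain of I-E. B6 mice carry a deletion in the I-E α gene and make no I-E at the surface, so that the antibody reads I-A. Cd74 encodes the invariant chain, and H2-DMa and H2-DMb1 the chains of the peptide exchanger. H2-Aa lies on chromosome 17 at 34282744 to 34287823, H2-Ab1 at 34263227 to 34269418, H2-Eb1 at 34305867 to 34316674, H2-DMa at 34119693 to 34139101 and H2-DMb1 at 34153191 to 34160229 of the same chromosome, in build GRCm38.p6. Ciita is on chromosome 16.

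Because the α and β chain genes were high in the same cells, the promoter stretches that carry the shared boxes are shown. They are from RefSeq, build GRCm38.p6, where 4 of the 7 genes had a window. A search on both strands of the 250 bases before the start site used TGATTGG, the core of the Y box, GATGATG, taken from the X box, and TGACGTCA, the cyclic AMP response element. The motifs do not overlap one another in these stretches, and the capitals mark the matches. The stretch of H2-Aa is chr17:34287855-34287909 on the minus strand, that of H2-Eb1 chr17:34305770-34305824 on the plus strand and that of H2-DMb1 chr17:34153091-34153146 on the plus strand.
H2-Aa: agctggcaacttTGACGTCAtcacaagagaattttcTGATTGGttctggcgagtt
H2-Eb1: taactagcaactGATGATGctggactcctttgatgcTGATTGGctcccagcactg
H2-DMb1: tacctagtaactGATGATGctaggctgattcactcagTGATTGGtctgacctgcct
The Y-box core began 50, 61 and 63 bases before the start site of H2-Aa, H2-Eb1 and H2-DMb1. It was found in 7.23% of 32851 promoters, GATGATG in 2.92% and TGACGTCA in 1.55%. GATGATG and TGATTGG starting within 40 bases of each other, as in H2-Eb1 and H2-DMb1, were found in 0.0974% of promoters. The 2 windows of H2-DMa held none of the 3 motifs. Protein was read through 15-base barcodes on antibodies to I-A-I-E and to CD74, shown because both are named for products of the genes studied.
I-A-I-E antibody: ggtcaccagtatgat
CD74 antibody: agcacccgacatttc

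After filtering, 1201 cells with 10857623 RNA UMIs remained in the day 7 library and 1630 cells with 17071067 UMIs in the steady-state library. A UMI is a molecular barcode that counts each captured transcript once. The median cell had 8315 UMIs and 543 antibody counts at day 7, against 9563.5 UMIs and 1050 antibody counts at steady state, and the libraries shared 0 cell barcodes. Cells were put into classes by marker genes among which no class II gene was used. Cells labelled cDC2-like carried at least 3 genes from a list of type 2 conventional dendritic cell markers. The list included Cd209a, Flt3 and Mgl2, and no single gene of it was required. Macrophage-like cells carried complement C1q and other macrophage genes and were divided by Vsig4, by genes of the synovial lining and by Lyve1, Timd4 and Folr2. Classical monocyte-like cells were gated on genes such as Ly6c2 and Ccr2, Ly6C-low monocyte-like cells on genes such as Nr4a1, Ace and Treml4. Again no single gene was required. The mix differed between the libraries. Classical monocyte-like cells were 553 of 1201 cells (46.0%) at day 7 and 190 of 1630 (11.7%) at steady state, granulocyte-like cells 163 (13.6%) and 8 (0.491%), and macrophage-like cells of all kinds 152 (12.7%) and 890 (54.6%). Fibroblast-like cells, which a CD45+ sort would leave out, were 16 and 66, and 156 and 248 cells met no gate. Cells near a gate were few in most classes, but 7 of 23 and 10 of 83 cDC2-like cells lay within 1.25 times the minimum.

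Class II RNA was lower in the day 7 library as a whole. By its label the sort left out cells with surface class II. Levels, shares and cell numbers here are thus those of the cells that passed it, and cannot be read as those of the tissue. The 7 genes together had 20667 UMIs, or 1903 CPM (UMIs of a gene per 1000000 UMIs; exact Poisson interval 1878 to 1930), at day 7, against 120830 UMIs, or 7078 CPM (7038 to 7118), at steady state. The log2 ratio was -1.89 (-1.92 to -1.87, conditional exact interval, as for every log2 ratio here). Of the 6 members that reached 20 CPM in either library, 5 were at least 2-fold lower at day 7, against a background of 10.7% of the 6436 genes that reached it. Ciita did not reach it.

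The chains of the peptide-binding molecule showed the largest ratios and the peptide exchanger and transactivator the smallest. H2-Eb1 had 87.2 CPM at day 7 and 585 at steady state (log2 -2.75, -2.84 to -2.65). H2-Ab1 had 158 and 733 (log2 -2.22, -2.29 to -2.14). H2-Aa had 238 and 991 (log2 -2.06, -2.12 to -2.0). The invariant chain gene Cd74 made up most of the class II UMIs, with 1181 at day 7 and 4394 at steady state (log2 -1.90, -1.92 to -1.87). The exchanger chains parted from each other, H2-DMb1 having 80.0 and 188 (log2 -1.23, -1.34 to -1.13) and H2-DMa 149 and 176 (log2 -0.24, -0.32 to -0.15). Ciita had 9.67 at day 7 and 11.2 at steady state, and its log2 ratio of -0.22 had an interval of -0.58 to 0.13 that includes 0. H2-DMb1 has a near-identical neighbour, H2-DMb2, and how reads of the pair were divided is not given in the sources used here.

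**Figure D1:**
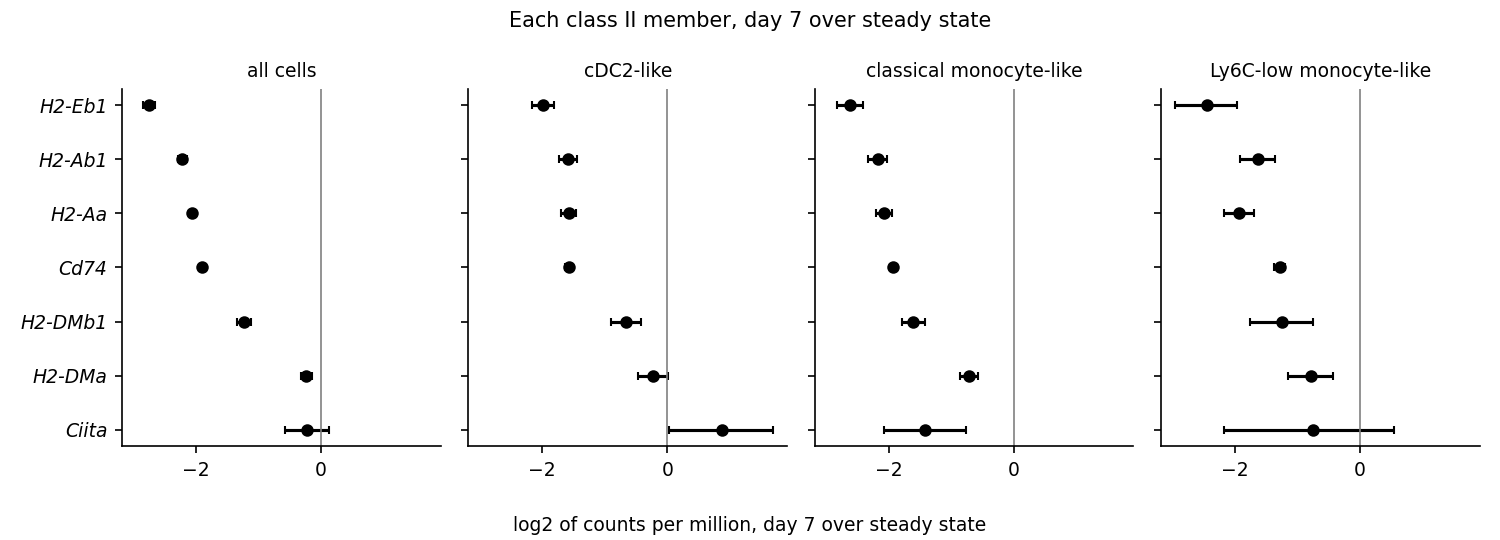
Log2 ratio of CPM, day 7 over steady state, for each class II gene over all cells and within 3 marker-gated classes; bars are 95% conditional exact intervals and cover counting error only. The order runs from H2-Eb1 (-2.75 over all cells) to Ciita (-0.22), and Ciita lies above 0 in cDC2-like cells.

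The levels spanned about 2 orders of magnitude between classes. Of the classes with more than 1 cell, the cDC2-like cells were highest in both libraries, with 12941 CPM over 23 cells at day 7 and 37747 over 83 cells at steady state. Among the gated classes they were followed by C1q+ Vsig4-low Lyve1-low macrophage-like cells, with 4693 (13 cells) and 14235 (91 cells). C1qa, a gene of this gate, was found in every one of these cells. Markers of cDC2 were unevenly present there. Cd209a and Flt3 had 0 CPM at day 7 and 1.19 and 7.13 at steady state, while Mgl2 had 104 at day 7 and 140 at steady state, and Tnip3 had 207 at steady state, against 412 in cDC2-like cells. Their part in the level of this class was not tested. Classical monocyte-like cells had 1606 and 5866, and Ly6C-low monocyte-like cells 1989 and 5229. Both monocyte classes stood close to each other in both libraries, and their order differed between them. Macrophage-like cells with Lyve1, Timd4 or Folr2 had 1102 and 2041. The lining macrophage-like cells had 122 (exact Poisson interval 87.2 to 166) and 388 (368 to 409), and Vsig4+ macrophage-like cells outside the lining gate had 977 and 390. At steady state the last 2 classes did not differ beyond counting error. Granulocyte-like cells, which should make little class II, had 103 (89.4 to 118) at day 7, within the interval of the lining macrophage-like cells. The 8 granulocyte-like cells at steady state had 2633, and 1 of them held 85.8% of it. The cells in no gate had 5776 and 13857, and 17 and 71 of them passed the cDC2 marker score without meeting the rest of that gate.

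**Figure D2:**
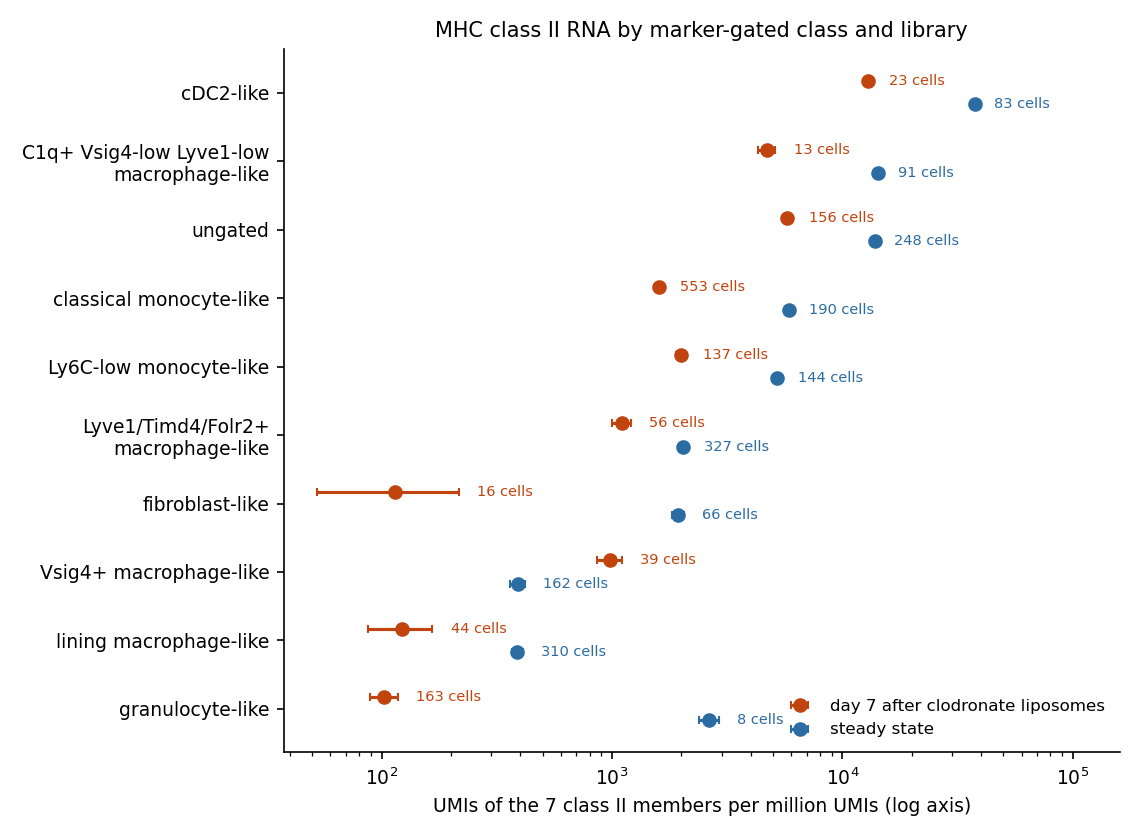
Summed CPM of the 7 class II genes (log axis) in each marker-gated class, with the day 7 library above the steady-state library in each row; bars are exact Poisson intervals and the number of cells stands beside each point. Day 7 lies left of steady state in every row but that of Vsig4+ macrophage-like cells (977 at day 7, 390 at steady state).

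Within classes the day 7 cells had less class II RNA too, in most classes. In cDC2-like cells the 7 genes had a log2 ratio of -1.54 (-1.59 to -1.5). The genes H2-Aa, H2-Ab1, H2-Eb1 and Cd74, 4 of 7 members, were at least 2-fold lower, against 5.09% of 6230 genes. H2-Eb1 had 884 CPM at day 7 and 3504 at steady state (log2 -1.99), and Cd74 7817 and 23307 (log2 -1.58). H2-DMa had 499 and 583, with an interval that includes 0 (log2 -0.22, -0.47 to 0.02). Ciita ran the other way in these cells, with 20 UMIs or 59.1 CPM at day 7 and 41 UMIs or 32.1 at steady state (log2 0.88, 0.03 to 1.69). At day 7, 1 of the 23 cells held 7 of the 20 UMIs. Without the cell with most Ciita UMIs in each library, a setting chosen after seeing the data, the levels were 39.6 and 29.3 CPM, and the log2 ratio of 0.43 had an interval of -0.60 to 1.38 that includes 0. The gate took in different cells in the 2 libraries by its own markers. Flt3 was found in 69.6% of cDC2-like cells at day 7 and 41.0% at steady state, and Mgl2 in 17.4% and 65.1%. The part of this difference in the class II ratio was not tested.

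In classical monocyte-like cells the log2 ratio of the 7 genes was -1.87 (-1.91 to -1.83), or -2.47 with cells named by clusters, and 6 of 7 members were at least 2-fold lower, against 1.39% of 5768 genes. H2-Eb1 again had the largest ratio, with 51.2 CPM at day 7 and 313 at steady state (log2 -2.61). H2-DMa was the member that stayed within 2-fold, with 193 and 317 (log2 -0.72, -0.86 to -0.57). Ciita had 45 UMIs at day 7 and 39 at steady state, or 8.0 and 21.3 CPM (log2 -1.41, -2.07 to -0.76). In Ly6C-low monocyte-like cells the log2 ratio was -1.39 (-1.47 to -1.32), and 5 of the 6 members that passed the minimum were at least 2-fold lower, against 3.58% of 5646 genes. The median log2 ratio over all genes tested was 0.19 in cDC2-like cells and 0.16 in classical monocyte-like cells, so that relative to the other genes of these cells the differences were larger.

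The macrophage-like classes were less uniform. In lining macrophage-like cells 40 UMIs of the 7 genes were counted in 44 cells at day 7 and 1358 in 310 cells at steady state (log2 -1.67, -2.16 to -1.22), and the ratio was -0.88 with equal weight per cell and -2.94 with cells named by clusters. Of 5 members past the minimum, 4 were at least 2-fold lower, against 3.38% of 6511 genes. H2-Aa had 0 UMIs at day 7 and 150 at steady state, and taking 3 counts as the limit for day 7 its log2 ratio was -2.23 or lower. In the Lyve1/Timd4/Folr2+ class the log2 ratio was -0.89 (-1.03 to -0.75), and 2 of 6 members were at least 2-fold lower, against 3.26% of 6498 genes. It rested in part on 1 cell per library, being -1.77 without the cell with most class II UMIs in each, and it was 0.22 when cells were named by clusters in place of gates. In Vsig4+ macrophage-like cells the log2 ratio was 1.33 (1.12 to 1.53), with 2 of 6 members at least 2-fold higher, against 6.92% of 6578 genes higher and 5.35% lower. This value rested on 1 of 39 cells, a CD45.2 cell with 267 class II UMIs per 10000, 1 Ciita UMI and 663 counts of I-A-I-E antibody. Without the cell with most class II in each library the ratio was -2.03.

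Most class II RNA was held by a small part of the cells. A median cell had 2.81 class II UMIs per 10000 UMIs at day 7 and 3.50 at steady state, while the 90th percentile was 57.6 and 239 and the highest cell 398 and 1565. The top 10% of cells held 74.9% and 76.2% of all class II UMIs, so that the share was close in both libraries although the amount was not. Cells with at least 100 class II UMIs per 10000 were 72 of 1201 (6.0%) at day 7 and 291 of 1630 (17.9%) at steady state. Which cells held the RNA differed. The cDC2-like cells held 21.2% of class II UMIs at day 7 and 39.9% at steady state, and classical monocyte-like cells 43.7% and 8.88%.

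The spread over cells differed between classes, with a coefficient of variation of 59.2% at day 7 and 78.3% at steady state in cDC2-like cells and of 210.5% and 186% in classical monocyte-like cells. Among cDC2-like cells the 25th, 50th and 75th percentiles were 85.6, 131 and 156 class II UMIs per 10000 at day 7 and 136, 329 and 633 at steady state. In classical monocyte-like cells the median was 4.30 and 7.79 and the 90th percentile 52.9 and 211. The upper tail thus differed more than the middle, and 32 of 553 such cells (5.79%) at day 7 and 37 of 190 (19.5%) at steady state reached 100 per 10000. C1q+ Vsig4-low Lyve1-low macrophage-like cells at steady state had a median of 37.3 with an upper quartile of 267, and 36 of 91 reached 100. In the lining class 0 of 44 and 1 of 310 cells did.

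**Figure D3:**
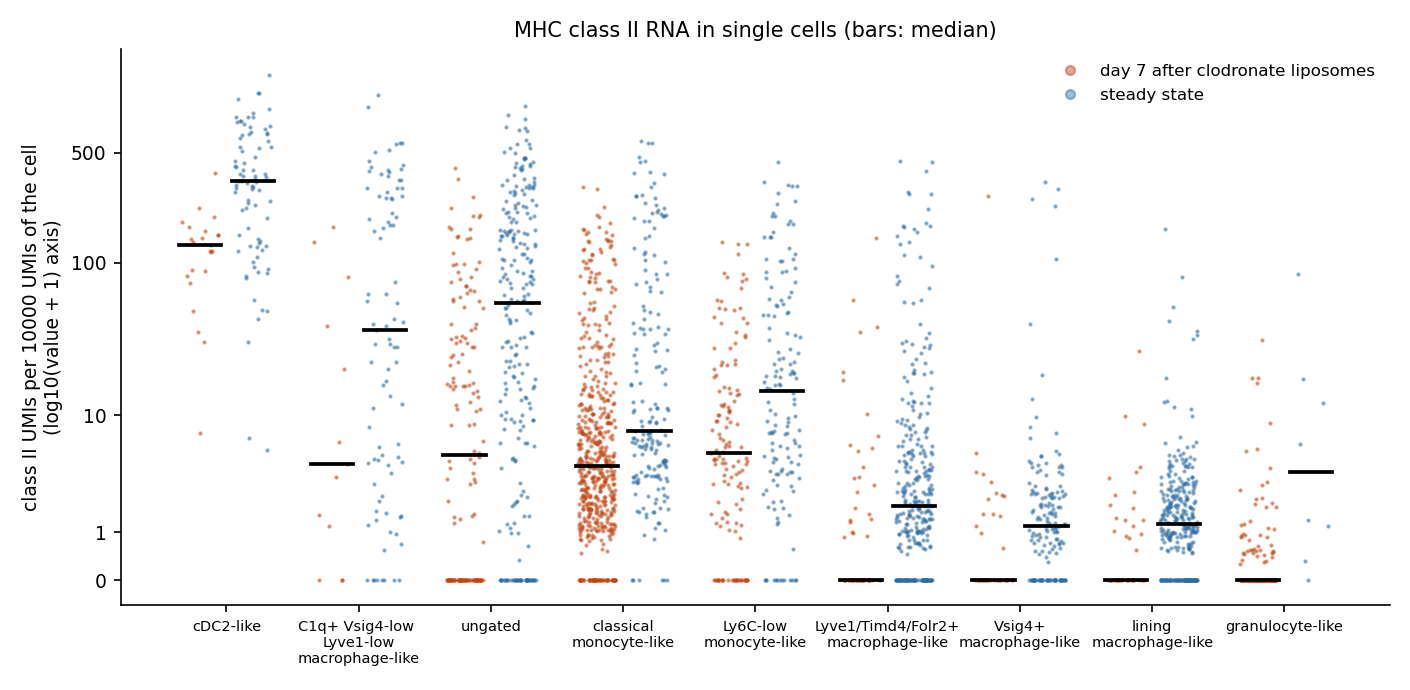
Class II UMIs per 10000 UMIs in each cell, by class, with day 7 to the left of steady state in each pair; the vertical axis is log10(value + 1), points are cells and black bars medians. The cDC2-like medians are 131 at day 7 and 329 at steady state, while in classical monocyte-like cells most points lie low (medians 4.30 and 7.79) under a tail that reaches 302 and 592.

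A class II UMI was found in 71.2% of cells at day 7 (68.5 to 73.7%, exact Clopper-Pearson interval, as for all shares) and in 81.3% at steady state (79.4 to 83.2%). After each cell was thinned to 2000 UMIs, which left out 182 and 133 shallower cells, the shares were 51.8% and 56.2%. The share in granulocyte-like cells at day 7, with a median depth of 12255 UMIs, was 30.7%, and 8.33% after thinning, and was taken as background. That background is of the day 7 library only. At steady state 36 of 66 fibroblast-like cells (54.5%) had no class II UMI. After thinning 46 of 59 (78.0%) had no UMI of the members other than Ciita. Cd74 was the member found most widely, in 51.3% and 59.8% of cells, and 38.0% and 42.7% after thinning. Ciita was found in 5.91% and 7.67%. H2-DMa was found in more cells at day 7 (48.2%) than at steady state (40.7%), and after thinning in 24.3% and 21.3%, with intervals that overlap. In classical monocyte-like cells H2-DMa was found in 73.2% of cells at day 7 and 86.3% at steady state, and H2-Aa in 16.5% and 37.4%. More of these cells had H2-DMa than Cd74 (67.1% and 75.8%) at full depth, but after thinning fewer did, with 33.7% and 43.1% for H2-DMa and 42.1% and 56.4% for Cd74.

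The members did not keep one proportion across classes, and H2-Ab1 per H2-Aa was highest in the lining class. UMI counts of different genes depend on capture as well as on abundance, so proportions are set against those of other classes only. H2-Ab1 UMIs per H2-Aa UMI were 0.678 (0.599 to 0.766) at day 7 and 0.682 (0.658 to 0.707) at steady state in cDC2-like cells, 0.607 and 0.650 in classical monocyte-like cells and 0.746 and 0.607 in Ly6C-low monocyte-like cells. In lining macrophage-like cells the same ratio was 2.38 (1.96 to 2.90) at steady state, from 357 and 150 UMIs, and at day 7 there were 14 H2-Ab1 UMIs and 0 of H2-Aa. The Vsig4+ class had 1.13 (0.865 to 1.47) and the Lyve1/Timd4/Folr2+ class 0.990 (0.903 to 1.09) at steady state. Leaving out the 12 lining cells with at least 10 class II UMIs per 10000 gave 230 H2-Ab1 and 31 H2-Aa UMIs, a ratio of 7.42. This setting was chosen after seeing the data and was run on the lining class alone. It removes cells by a total that includes H2-Aa, so 7.42 cannot be set against the ratios of other classes. Those 12 cells held the other 127 H2-Ab1 and 119 H2-Aa UMIs. Granulocyte-like cells at day 7, also low in class II, had 1.32 (0.731 to 2.41), from 29 and 22 UMIs.

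H2-Ab1 was found in 148 of 310 lining macrophage-like cells (47.7%, 42.1 to 53.5%) at steady state, H2-Aa in 40 (12.9%, 9.38 to 17.2%) and Cd74 in 109 (35.2%). After thinning the shares were 16% for H2-Ab1 and 3.74% for H2-Aa. Of the 148 cells with H2-Ab1, 129 (87.2%) had no H2-Aa UMI and 84 (56.8%) no Cd74 UMI, whereas in cDC2-like cells 4 of 81 and 1 of 81 did. Other classes low in class II were nearer to the lining class. In the Vsig4+ class at steady state these were 40 (72.7%) and 31 (56.4%) of 55 cells. The Lyve1/Timd4/Folr2+ class had 93 (59.6%) and 53 (34.0%) of 156, and granulocyte-like cells at day 7 had 12 (85.7%) and 11 (78.6%) of 14. Only 10 lining cells (3.23%) had all of H2-Aa, H2-Ab1 and Cd74. At day 7 the lining class had H2-Ab1 in 8 of 44 cells (18.2%, 8.19 to 32.7%). Among fibroblast-like cells of the steady-state library, with a median depth of 10366 UMIs against 10662 in the lining class, 6 of 66 had an H2-Ab1 UMI.

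H2-Eb1 per H2-Aa differed between the libraries. It was 0.466 (0.405 to 0.535) at day 7 and 0.618 (0.596 to 0.642) at steady state in cDC2-like cells, and 0.297 (0.259 to 0.339) and 0.431 (0.390 to 0.475) in classical monocyte-like cells. H2-DMa took 12% of class II UMIs in classical monocyte-like cells at day 7 and 5.41% at steady state, and 3.86% and 1.54% in cDC2-like cells.

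CIITA is needed for class II transcription in most cells, and its RNA was scarce, with 105 UMIs in 71 cells at day 7 and 192 in 125 cells at steady state. Its 6 targets here were the other members. Cells with a Ciita UMI had a median of 75.7 target UMIs per 10000 at day 7, against 2.33 in cells without one. At steady state the medians were 263 with and 2.73 without. The log2 ratio of target level, with over without a Ciita UMI, was 2.82 (2.77 to 2.86) at day 7 and 2.80 (2.78 to 2.81) at steady state, and 2.16 in both libraries after thinning. Every cell with a Ciita UMI had a target UMI. Among cells with at least 100 class II UMIs per 10000, 29 of 72 (40.3%, 28.9 to 52.5%) at day 7 and 92 of 291 (31.6%, 26.3 to 37.3%) at steady state had a Ciita UMI, against 42 of 1129 (3.72%) and 33 of 1339 (2.46%) of the other cells. The intervals of the 2 libraries overlap.

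Within classes the ratio varied. In cDC2-like cells at day 7 the target level with over without a Ciita UMI had a log2 ratio of 0.01 (-0.07 to 0.10). At steady state it was 1.27 (1.25 to 1.30) in those cells and 0.04 (-0.11 to 0.18) after thinning. Median depth at full count was close, with 13461.5 UMIs in cells with Ciita and 13401 in those without. Thinning left 5 of 81 cells with a Ciita UMI, against 26 of 83 before. Cells that lost theirs were counted as without, so the thinned value does not show a part of depth. In classical monocyte-like cells the log2 ratio was 2.76 at day 7 and 2.11 at steady state, and 2.39 and 1.94 after thinning. Relative to its targets Ciita was higher at day 7. There were 5.11 Ciita UMIs per 1000 target UMIs at day 7 (4.17 to 6.19) and 1.59 (1.37 to 1.83) at steady state. In cDC2-like cells these were 4.59 (2.80 to 7.1) and 0.851 (0.610 to 1.15), the day 7 cell with 7 Ciita UMIs included. In classical monocyte-like cells they were 5.01 (3.65 to 6.71) and 3.65 (2.59 to 4.99), with intervals that overlap.

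Origin was read from the CD45.2 antibody, which marks host cells, and the CD45.1 antibody, which marks donor cells. The calls were uneven, since a host call needed an excess of CD45.2 counts while donor calls included cells with no excess of CD45.1. A donor call is therefore not in itself evidence of CD45.1 on a cell. Host and donor cells numbered 127 and 982 at day 7 and 764 and 752 at steady state, with 92 and 114 left unassigned. Fibroblast-like cells had few antibody counts (medians 147.5 and 124.5), and 15 of 16 at day 7 and 34 of 66 at steady state were called donor cells, so that calls at low antibody counts are uncertain. At steady state host macrophage-like cells had 743 class II CPM over 705 cells, against 11642 in donor macrophage-like cells over 118 cells (log2 -3.97, -4.02 to -3.93). All 6 members past the minimum were at least 2-fold lower in host cells, against 2.71% of 6268 genes. H2-Eb1 had the largest ratio (log2 -4.74) and H2-DMb1 the smallest (log2 -3.29).

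The classes of host and donor macrophage-like cells differed, since 272 host and 3 donor cells were in the lining class. In the 2 macrophage-like classes compared on their own the ratio was smaller. In the Lyve1/Timd4/Folr2+ class host cells had 1408 CPM (259 cells) and donor cells 3829 (45 cells), with a log2 ratio of -1.44 (-1.53 to -1.36), and 6 of 6 members were at least 2-fold lower, against 3.35% of 6385 genes. In the C1q+ Vsig4-low Lyve1-low class host cells had 3365 (25 cells) and donor cells 18772 (64 cells), with a log2 ratio of -2.48 (-2.59 to -2.37), and 6 of 7 members were at least 2-fold lower, against 7.39% of 6588 genes. In that class 2 of 25 host cells and 39 of 64 donor cells reached 50 class II UMIs per 10000, and the medians were 1.71 and 170. The highest host cell alone had 980 per 10000. Without the 1% of cells with most class II, which took that cell out, the log2 ratio was -4.75. Of cDC2-like cells at steady state 6 were host and 75 donor, with 22989 and 38303 CPM. Host cells had the higher level in some sets with few cells of 1 origin. At steady state these were classical monocyte-like cells (22501 CPM in 4 host and 5554 in 184 donor cells) and fibroblast-like cells (22084 in 3 host and 1314 in 34 donor cells). At day 7 they were the C1q+ Vsig4-low Lyve1-low class (10310 in 5 host and 3093 in 4 donor cells), Vsig4+ macrophage-like cells (1138 in 30 host cells and no UMI in 1 donor cell) and, by a small margin, Ly6C-low monocyte-like cells (2056 in 2 host and 2015 in 132 donor cells).

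At day 7 host macrophage-like cells had 875 CPM (95 cells) and donor macrophage-like cells 4244 (15 cells), a log2 ratio of -2.28 (-2.45 to -2.10). It was -1.55 with equal weight per cell and -2.91 without the 1% of cells with most class II. The latter setting left 94 host cells and all 15 donor cells, so it lowered the host level only. Of the 440 class II UMIs of the donor cells, 276 were in 1 cell of the Lyve1/Timd4/Folr2+ class. The ratio without that donor cell was not tested. All 6 members past the minimum were at least 2-fold lower in host cells, against 11.4% of 6736 genes. Classical monocyte-like cells at day 7 had 1058 in 18 host cells and 1655 in 523 donor cells (log2 -0.65, -0.84 to -0.46), with 3 of 6 members at least 2-fold lower in host cells, against 6.81% of 5988 genes. Between the libraries, donor cells had 2099 CPM at day 7 and 14038 at steady state (log2 -2.74, -2.76 to -2.72), and all 7 members were at least 2-fold lower, against 6.38% of 6113 genes. Host cells had 999 at day 7 and 1360 at steady state (log2 -0.44, -0.53 to -0.36), and 0 of 6 members were, against 1.67% of 6539 genes. The macrophage-like classes of host cells differed in both directions. Host Lyve1/Timd4/Folr2+ cells had 245 and 1408 CPM and lining cells 105 and 198. Host Vsig4+ cells had 1138 and 303, and C1q+ Vsig4-low Lyve1-low cells 10310 and 3365. At day 7 the last 2 classes, with 30 and 5 host cells, held 267 and 342 of the 1141 host class II UMIs. In each of these classes 1 host cell held most of them, with 252 and 277 UMIs. The small host ratio between the libraries thus rested in part on these 2 cells, and the ratio without them was not tested. Classical monocyte-like cells were 523 of the 982 donor cells at day 7 and 184 of the 752 at steady state, and the part of this in the donor ratio was not tested.

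**Figure D4:**
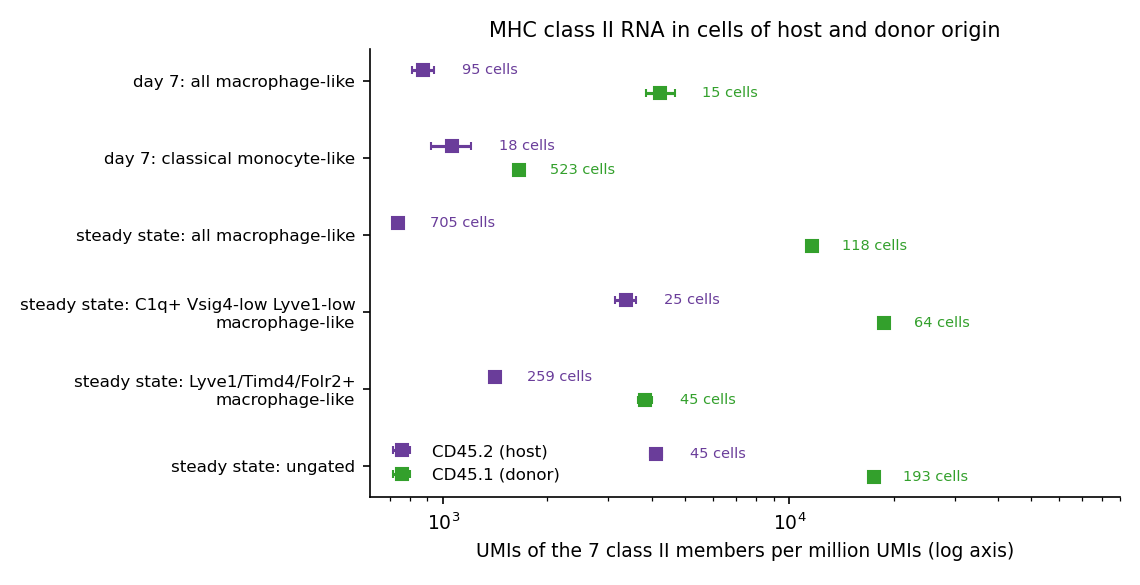
Summed class II CPM (log axis) in CD45.2 host cells (purple, upper point of each row) and CD45.1 donor cells (green, lower point), by library and class; bars are exact Poisson intervals. Host cells lie left of donor cells in all 6 rows, from 875 and 4244 in macrophage-like cells at day 7 to 743 and 11642 in those at steady state.

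By its label the sort left out cells with surface class II, and the I-A-I-E antibody was still counted on many cells. No antibody named as an isotype control was found among the 92, so its background was read from granulocyte-like cells at day 7, whose median was 1 count and 90th percentile 3. The median over all cells was 1 count at day 7 and 3 at steady state, the 90th percentile 10 and 135, and the highest cell 663 and 10081. At least 10 counts were found on 122 cells (10.2%) at day 7 and 541 (33.2%) at steady state, and at least 100 on 11 (0.916%) and 222 (13.6%). On cDC2-like cells the median was 20 and 138 counts, and 3 of 23 and 57 of 83 had at least 100. C1q+ Vsig4-low Lyve1-low macrophage-like cells had medians of 1 and 27, and lining macrophage-like cells 1 in both. The Ly6C antibody, also used in the sort, had medians of 58 and 47 on classical monocyte-like cells.

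The antibody libraries differed in depth, and the difference was smaller per antibody count. The log2 ratio of mean I-A-I-E counts per cell, day 7 over steady state, was -3.60 (-3.63 to -3.56) over all cells and -2.35 per 1000 antibody counts. In cDC2-like cells it was -3.16 (-3.26 to -3.06) and -1.5. Within cDC2-like cells the median was 61.9 I-A-I-E counts per 1000 antibody counts at day 7 and 168 at steady state.

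Antibody counts followed class II RNA above a level, and below it stayed near background. Cells with 1 to 10 class II UMIs per 10000 had a median of 1 antibody count at day 7 and 2 at steady state. With 10 to 50 the medians were 1 and 9, with 50 to 100 they were 9 and 37.5, and with 100 to 300 they were 36 and 92.5. Above 300 they were 15.5 in 4 cells at day 7 and 152 in 127 cells at steady state. From 10 UMIs per 10000 upward the day 7 cells thus had fewer counts. Per 1000 antibody counts the medians were 81.2 and 99.5 with 100 to 300 UMIs per 10000, and 65.2 and 209.6 above 300. Spearman's rho between RNA and antibody over cells, given as a description of cells that share a library, was 0.352 over 1201 cells at day 7 and 0.624 over 1630 at steady state. Among classes it was highest in the C1q+ Vsig4-low Lyve1-low class at steady state (0.811 over 91 cells) and low in the lining class (0.162 over 44 and 0.133 over 310). Of the 87 antibodies with any count, I-A-I-E had rank 3 by rho with class II RNA at day 7, after CD45.1 and CD54, and rank 1 at steady state, ahead of CD45.1.

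RNA and antibody counts parted in both directions. Of cells with at least 50 class II UMIs per 10000, 94 of 134 (70.1%, 61.6 to 77.7%) at day 7 and 333 of 369 (90.2%, 86.8 to 93.1%) at steady state had at least 10 antibody counts. Of the cells below that RNA level, 28 of 1067 (2.62%) and 208 of 1261 (16.5%) had at least 10. Of these 208 cells 122 were macrophage-like, among them 63 of the Lyve1/Timd4/Folr2+ class. In the lining class 25 of the 28 cells with at least 10 antibody counts were below the RNA level. The cut of 10 counts is not scaled to antibody depth. Lining cells at steady state had a median of 1727.5 antibody counts, against 1050 over all cells. At least 100 RNA UMIs per 10000 with fewer than 10 antibody counts was seen in 8 cells at day 7 and 13 at steady state, whose median antibody total was 251.5 and 94, against 488 and 924 over all cells at that RNA level. At least 100 antibody counts with under 10 RNA UMIs per 10000 was seen in 0 and 7 cells. The median antibody total of those 7 was 2530, against 1480.5 over all steady-state cells at that antibody level.

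**Figure D5:**
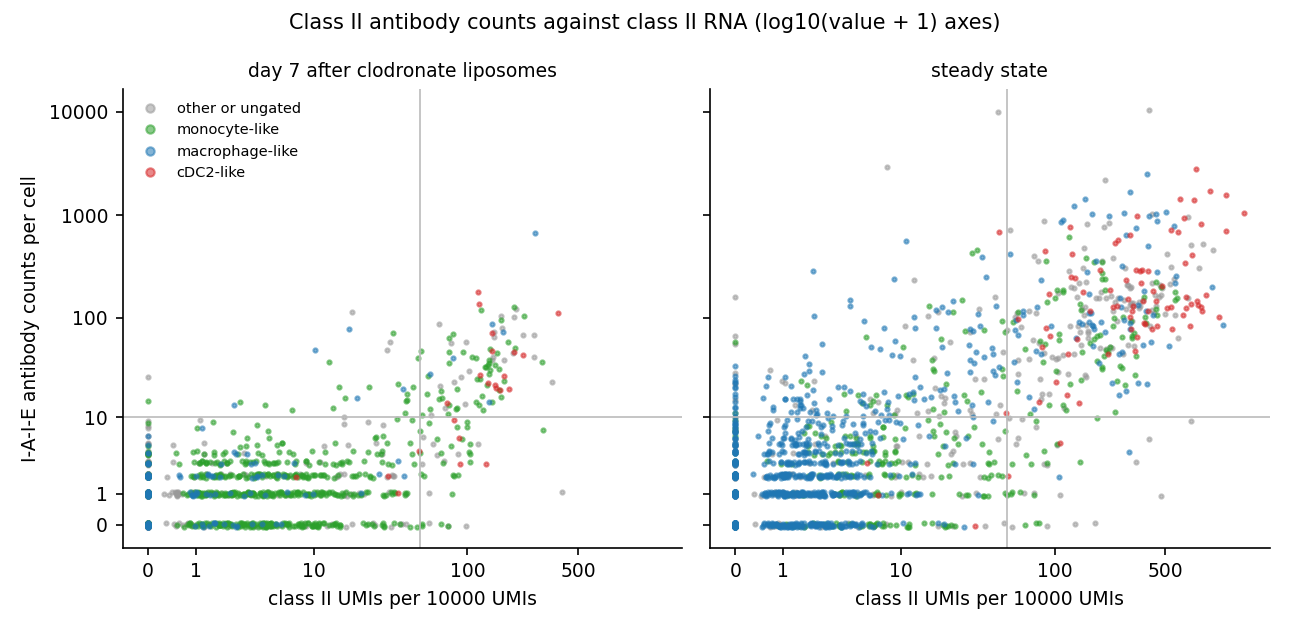
I-A-I-E antibody counts per cell against class II UMIs per 10000 UMIs, both on log10(value + 1) axes, with day 7 on the left and steady state on the right; points are cells coloured by class and grey lines mark 10 counts and 50 UMIs per 10000. Of cells right of the vertical line, 70.1% at day 7 and 90.2% at steady state lie above the horizontal one.

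Counts of the CD74 antibody were low and their rho with Cd74 RNA was near 0. The median was 1 count at day 7 and 0 at steady state, the highest count 7 and 20, and rho was -0.002 and -0.028. In cDC2-like cells, which had the most Cd74 RNA, its median was 1 and 0.

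The other genes of the class II pathway were read from a list of 33 that the files hold. Over all cells 26 reached 20 CPM, of which 5 were at least 2-fold lower at day 7 and 0 higher (10.7% and 6.48% of all genes), with a median log2 ratio of 0.02, against -0.04 over all genes. The 3 lowest were Cd9, a tetraspanin (282 CPM at day 7 and 1453 at steady state, log2 -2.36), Lgmn, an endosomal protease (187 and 622, log2 -1.74), and March8, a ubiquitin ligase (10.9 and 30.1, log2 -1.47). The other 2 were Ctsl, a cathepsin, and Cd83. Among the highest were Irf8 (111 and 65.3, log2 0.77) and Nfya, a subunit of the Y-box factor (44.3 and 29.4, log2 0.59). Rfx5, of the X-box factor, had 4.88 and 4.16 and did not reach the minimum.

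Within cDC2-like cells 26 of the 33 passed, with 2 at least 2-fold lower and 2 higher (5.09% and 10.8% of all genes). Irf8 had 177 CPM at day 7 and 27.4 at steady state (log2 2.69, 2.07 to 3.34) and Irf4 248 and 63.4 (log2 1.97, 1.51 to 2.43). Jak2, a kinase of interferon receptors, came next (log2 0.99). H2-DMb2 had 1 UMI at day 7 and 60 at steady state (log2 -3.99, -9.32 to -1.46), and Cd9 (log2 -1.25) and Rfxap (log2 -0.82) came next. In classical monocyte-like cells 23 passed and 0 were past 2-fold in either direction (1.39% of all genes lower and 3.31% higher), with Cd83 (log2 -0.65), Ctss (log2 -0.47) and Cd9 (log2 -0.43) lowest and Jak2 (0.90), Nfya (0.60) and Creb1 (0.56) highest. In Ly6C-low monocyte-like cells 24 passed and Cd83 alone was at least 2-fold lower (log2 -1.49), against 3.58% of all genes, a share near that of the list. For host over donor macrophage-like cells at steady state 25 passed and 0 were past 2-fold (2.71% of all genes lower and 4.47% higher), with March8 highest (47.1 CPM in host and 28.6 in donor cells, log2 0.72). The members themselves were past 2-fold in that comparison.

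Across 17 groups of class and library with at least 20 cells, the genes whose level was most like that of the summed members were Clec4b1 (Pearson's r 0.922), a C-type lectin of dendritic cells, Lgals3 (0.907), Slamf7 (0.898), Tnip3 (0.889), Ahcyl2 (0.889), Hotairm1 (0.876), Ndnf (0.869) and Tmem176a (0.865), out of 8821 genes on the scale of log2(CPM + 10). The groups share 2 libraries, and Tnip3 is a cDC2 marker of the gate. Of the members, Cd74 was nearest their sum (0.994) and Ciita farthest (0.866). That order is in part set in advance, since each member is in the sum. Cd74 made up 62.1% of class II UMIs in each library, and Ciita 0.508% at day 7 and 0.159% at steady state. Clec4b1 was highest in cDC2-like cells at steady state, with 227 CPM.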

How the data were processed

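The authors deposited matrices of whole-number counts, UMIs per gene and antibody tags per cell. The submitters' processing notes name Cell Ranger 6.1.2, Seurat 4.4.0 and the build mm10, with no role or order. Barcodes needed 500 UMIs, 200 genes and no more than 10% mitochondrial UMIs. Scrublet (scanpy 1.11.5) then took out 9 doublets at day 7 and 7 at steady state. Ordered gates on summed marker UMIs per 10000, free of class II genes, gave the classes. Origin came from a Gaussian mixture (scikit-learn 1.9.0) on log2 CD45.2 over CD45.1 antibody counts, each plus 1, at a posterior of 0.95. Donor calls reached a log2 value of 0 in both libraries, which stands for equal counts or no counts of these antibodies. Host calls began at 2.36 at day 7 and 2.38 at steady state. UMIs were summed per class and library into CPM, with 95% exact Poisson, conditional exact or Clopper-Pearson intervals (scipy 1.17.1). With 1 library per group no test was made. A gene counted as called at 2-fold, with 20 CPM in either group, and a gene with 0 counts on one side was taken at 3. Alternatives included TMM scaling (edgeR 4.0.16), other gates, clusters and thinning. The log2 ratios and the intervals of ratios and shares were tested on simulated Poisson and binomial counts, which hold no spread between cells. The gates, doublet calls, origin calls, thinning and clusters were not tested in this way. Members, lists and gates were chosen with earlier results of these data known, and gate minimums after marker values were seen. Genes named were all members, the 3 highest and 3 lowest list genes of a comparison past the minimum (or their extremes) and the 8 genes most like the members. Ctsl, Rfx5 and class markers were added after their values were seen. A gene that the rule would name is not reported here.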

Additional observations from a re-analysis of the deposited data

Results flagged for a closer look

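Ratios of day 7 over steady state ran in opposite directions in different classes for 5 members and for their sum. Ciita was higher at day 7 in cDC2-like cells (log2 0.88) and lower in classical monocyte-like cells (log2 -1.41). Without the cell with most Ciita UMIs in each library, the ratio in cDC2-like cells was 0.43 (-0.60 to 1.38), an interval that includes 0. In Vsig4+ macrophage-like cells H2-Aa (log2 1.48), H2-Ab1 (log2 0.66), H2-Eb1 (log2 0.97), Cd74 (log2 1.75) and the 7 members together (log2 1.33) were higher at day 7, while each was lower in 4 or 5 of the other classes compared. Without the cell with most class II in each library, the sum in Vsig4+ macrophage-like cells was -2.03. With 1 library per group these differences between classes were not tested.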

How the results depend on the processing

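All values here are log2 ratios unless a percent is given. Weighting each cell equally gave -1.83 for all cells, -1.66 for cDC2-like, -1.40 for Lyve1/Timd4/Folr2+, -0.29 for Vsig4+ (reversed from 1.33), -0.88 for lining, -1.54 for Ly6C-low and -1.77 for classical monocyte-like cells. For host over donor it gave -2.16 in the C1q+ Vsig4-low Lyve1-low class, -2.02 in the Lyve1/Timd4/Folr2+ class, -4.17 in the steady-state and -1.55 in the day 7 macrophage-like cells. Without the 1% of cells with most class II the values were -1.84 for all cells, -1.28 for cDC2-like, -2.53 for Vsig4+ (reversed) and -1.97 for classical monocyte-like cells, and for host over donor -4.75, -4.07 and -2.91 in the C1q+, steady-state and day 7 macrophage-like sets. Without the 1 cell with most class II in each library, an alternative added after seeing the data, they were -1.62 for cDC2-like, -1.77 for Lyve1/Timd4/Folr2+ and -2.03 for Vsig4+ (reversed). TMM scaling gave -1.80, -1.75, -1.06 and -2.01 for all, cDC2-like, Lyve1/Timd4/Folr2+ and classical monocyte-like cells and -2.64 for C1q+ host over donor cells. Equal shares of the gated classes gave -1.55 for all cells. A doubled marker minimum gave -2.03 for cDC2-like, -1.67 for Lyve1/Timd4/Folr2+, 1.57 for Vsig4+ and -1.54 for classical monocyte-like cells. Cells named by clusters, which gave the gated name to 84.7% of gated cells at day 7 and 66.9% at steady state, had -1.04 for cDC2-like, 0.22 for Lyve1/Timd4/Folr2+ (reversed from -0.89), 0.46 for Vsig4+, -2.94 for lining, -1.64 for Ly6C-low and -2.47 for classical monocyte-like cells. Keeping doublet calls gave 0.78 for Vsig4+ cells and -1.60 for host over donor Lyve1/Timd4/Folr2+ cells, and a limit of 5% mitochondrial UMIs gave 1.92 for Vsig4+ cells. A fixed origin threshold gave -2.61, -1.10 and -3.70 for the C1q+, Lyve1/Timd4/Folr2+ and all macrophage-like steady-state sets and -1.04 for day 7 classical monocyte-like cells. Thinning gave 51.8% and 56.2% of cells with a class II UMI, and at least 3 UMIs 47.5% and 53.7%, at day 7 and steady state. The Ciita ratio was 2.16 in both libraries after thinning. Per 1000 antibody counts the I-A-I-E ratio was -2.35 over all cells and -1.5 in cDC2-like cells. For single members over all cells, all 42 values under the 6 alternatives run on them (doublet calls kept, the 5% limit, equal weight per cell, without the top 1% of cells, TMM and equal class shares) were below 0. The cause of these shifts was not tested.

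No paired analysis was possible because each group had 1 library. Of the results above, the Vsig4+ direction rested on 1 cell and the Lyve1/Timd4/Folr2+ direction on how cells were named. Shares of cells with Ciita or H2-Aa are bounded by depth, and the number of animals behind a library is unknown, so that a difference between libraries cannot be told apart from one between animals, sorts or captures.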

Other observations

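The B cell-like gate held 1 cell in each library. The day 7 cell had 264 class II UMIs per 10000, of which Cd74 made up 79.2%, and the steady-state cell had 3 UMIs, all of Cd74.

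Class II RNA in fibroblast-like cells lay in few cells. The class had 114 CPM over 16 cells at day 7 and 1936 over 66 cells at steady state, where the top 7 cells held 98.1% and 2 cells reached 100 per 10000. Their H2-Ab1 per H2-Aa was 0.656 (0.527 to 0.814), near the 0.682 of cDC2-like cells at steady state.

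The 114 steady-state cells with no assigned origin had 4055 class II CPM, between the 1360 of host and the 14038 of donor cells. At day 7 the 92 unassigned cells had 582, below both the 999 of host and the 2099 of donor cells.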
